A study of Mus musculus with 4 samples.

Results

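The genes described here encode the conjugation enzymes of mouse kidney: UDP-glucuronosyltransferases (Ugt), glutathione S-transferases (Gst) and sulfotransferases (Sult). They were chosen by symbol, as every gene starting with Ugt1, Ugt2, Ugt3, Gsta, Gstm, Gstp, Gstt, Gstk, Gsto, Gstz or Sult with at least 20 UMIs (unique molecular identifiers, counts of captured RNA molecules) over all barcodes. Of 31053 genes in the deposited tables, 64 symbols matched and 44 had the 20 UMIs. They were 14 of 21 Ugt symbols, 22 of 22 Gst symbols and 8 of 21 Sult symbols. The other 20 symbols fell below the minimum, and 14 of those had 0 UMIs. Kidneys of C57BL/6 mice, 10 weeks old and bought as C57BL/6J, were profiled cell by cell with droplet RNA sequencing (10x Genomics, 3' chemistry). Mice received 1 intraperitoneal injection of recombinant human FGF23, a hormone that lowers phosphate reabsorption in the tubule, at 10 µg per mouse, and kidneys were taken at 1, 4 or 12 h. The fourth group is labelled 0 h with a dose of 0 µg, although its deposited matrix is named as saline at 1 h. The name 0 h is kept below, and from these sources it cannot be known if those mice received saline. There was 1 library per time, each made from male and female kidneys digested as pairs, and the number of pairs per library is not given in the labels.

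Conjugation makes lipophilic compounds more soluble so that they can be excreted. Ugt enzymes sit in the endoplasmic reticulum and transfer glucuronic acid from UDP-glucuronate to steroids, bilirubin, bile acids and drugs. Gst enzymes are mostly cytosolic and transfer glutathione to electrophiles, including products of lipid peroxidation, and cytosolic Sult enzymes transfer sulfate from PAPS, the activated form of sulfate. The proximal tubule, whose successive segments are called S1, S2 and S3, takes up organic anions from blood and filtrate and is a main site of these reactions in the kidney. Rodent liver and kidney are known for large sex differences in several of these enzymes.

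Many members lie in tandem arrays of similar copies. The Ugt1a genes share one locus on chromosome 1, in which different first exons are spliced to the same last exons. Ugt2b37 (chr5:87240493-87254804), Ugt2b38 (chr5:87409942-87424203), Ugt2b5 (chr5:87124960-87140318) and Ugt2b34 (chr5:86889767-86906937) lie on chromosome 5 with Sult1d1 (chr5:87554645-87569027) and Sult1b1. The Gstm genes lie on chromosome 3, Gsta1, Gsta2 and Gsta4 on chromosome 9, the Gstt genes on chromosome 10, and Ugt3a1 and Ugt3a2 on chromosome 15 (GENCODE vM21, GRCm38). Since reads come from 3' ends, the last 500 bases of each protein-coding transcript were searched for 50-base stretches that another gene also holds. For each gene the transcript with the largest shared part is given, so other transcripts of that gene may share less. In 12 of 44 members over 50% of these stretches were shared, and in 22 none were. The 12 were all 7 Ugt1a members, Gsta1, Gsta2, Gstp1, Gstp2 and Gstt3. For Ugt1a1, Ugt1a2, Ugt1a5, Ugt1a6a, Ugt1a6b and Ugt1a10 the share was 100%, and for Ugt1a7c it was 87.4%. It was 90.0% for Gsta1, 72.5% for Gsta2 (Gm10639, Gm3776 and Gsta1 among others), 88.9% for Gstp2, 75.2% for Gstp1 and 78.0% for Gstt3. Which copy a read came from is therefore uncertain for these genes, and their values may hold reads of a neighbour or lack reads lost to one. Gstm1 shared 41.0%.

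In the Ugt2b array 3 members also share bases just upstream of their start. They are shown because Ugt2b37 and Ugt2b38 were far higher in male cells and Ugt2b5, with the same stretch, was low in both sexes. The 250 bases before the RefSeq start (GRCm38.p6, minus strand, 5′ to 3′) are chr5:87254789-87255038 for Ugt2b37, chr5:87424204-87424453 for Ugt2b38 and chr5:87140341-87140590 for Ugt2b5. Capitals mark the longest stretch that all 3 hold, 62 bases that start 85, 71 and 68 bases before the gene start in that order.
Ugt2b37: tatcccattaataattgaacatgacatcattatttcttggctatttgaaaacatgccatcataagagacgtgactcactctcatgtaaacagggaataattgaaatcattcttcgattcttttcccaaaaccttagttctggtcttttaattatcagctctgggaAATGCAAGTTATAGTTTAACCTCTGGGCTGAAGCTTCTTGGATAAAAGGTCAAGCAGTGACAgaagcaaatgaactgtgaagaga
Ugt2b38: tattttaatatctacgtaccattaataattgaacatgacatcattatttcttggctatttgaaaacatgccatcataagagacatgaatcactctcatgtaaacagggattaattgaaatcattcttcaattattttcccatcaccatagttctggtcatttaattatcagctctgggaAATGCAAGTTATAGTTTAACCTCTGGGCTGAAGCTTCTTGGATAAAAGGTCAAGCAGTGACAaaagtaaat
Ugt2b5: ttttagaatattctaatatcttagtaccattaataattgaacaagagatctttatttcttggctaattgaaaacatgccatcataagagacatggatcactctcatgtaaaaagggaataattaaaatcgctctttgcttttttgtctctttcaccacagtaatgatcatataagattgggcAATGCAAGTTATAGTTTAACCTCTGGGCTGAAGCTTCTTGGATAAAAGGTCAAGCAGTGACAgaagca
Gsta1 and Gsta2, the alpha-class pair with similar 3' ends, shared a 29-base stretch in the same window.
Gsta1 and Gsta2: CACCTTTCTAGTCTATCATGAAACTCTGG
Promoters of 40 of 44 members were found in the RefSeq table. On both strands, with overlap between motifs allowed, the core of the antioxidant response element TGACNNNGC stood in 2 of the 40 (5%) against 10.1% of 27025 genes. The STAT5 palindrome TTCNNNGAA stood in 2 (5%) against 7.18% of genes, and GTTAAT, a core of the HNF1 site, stood in 9 (22.5%) against 6.52%. None of the 3 motifs stood in the windows printed above for Ugt2b37, Ugt2b38 and Ugt2b5.

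The libraries held 139675666 to 158838728 UMIs, and 8758 to 10131 cells per library were kept. Any pair of libraries shared 36 to 57 barcodes. Levels are given as CPM, counts per 1000000 UMIs, summed over the cells of a type in a library, with no length scaling, since each molecule is counted at its 3' end. Cell types were named from marker genes and are called "like" a type. S1-like cells numbered 1657 to 2017 per library, S2-like cells 2671 to 3207 and S3-like cells 153 to 311. Members were kept out of the clustering. Clusters without a name held 11.7% to 14.7% of cells, and 757 to 1065 of these cells per library were nearest to a proximal segment. A further 12.2% to 14.1% of proximal cells had no segment name. Neither set entered the segment levels or the sex test. A sub-cluster of proximal cells without a segment name had 2912 CPM of Gsta2 and 683 CPM of Gsta4, the highest of all proximal sub-clusters. With 1 library per time no difference between times has a replicate check, and all intervals cover counting error only. The 44 members summed to 2169966 UMIs, of which 1132985 were Gst, 609209 Ugt and 427772 Sult UMIs.

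Among the Ugt genes, 4 carried most of the UMIs. Ugt2b38, a member of the family that glucuronidates steroids and other compounds, was highest in S2-like cells, with 1234, 1088, 1368 and 936 CPM at 0, 1, 4 and 12 h. Its level in S1-like cells was 576, 513, 485 and 360 CPM, and in S3-like cells 24.2, 19.0, 29.9 and 11.7 CPM. The lowest S2-like library thus lay above the highest S1-like library, and the highest S3-like library below every other. Its neighbour Ugt2b37 was also highest in S2-like cells, with 250, 177, 165 and 128 CPM there, 7.53, 6.77, 5.69 and 2.28 CPM in S1-like cells and 12.5, 18.2, 11.2 and 2.79 CPM in S3-like cells. Ugt2b34 had the opposite order, with 70.5, 62.7, 60.8 and 57.5 CPM in S1-like cells and 7.69, 8.68, 8.16 and 9.41 CPM in S2-like cells. In S3-like cells Ugt2b34 stood at 0.195, 0, 1.65 and 0.838 CPM, and the 0 UMIs at 1 h allow up to 1.09 CPM.

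The Ugt3 genes, which use sugar donors other than UDP-glucuronate in other mammals, were higher in the later segments. Ugt3a1 stood at 47.3, 40.8, 30.1 and 28.6 CPM in S1-like cells, 250, 230, 181 and 172 CPM in S2-like cells and 618, 522, 430 and 406 CPM in S3-like cells. The 3 segments did not overlap for Ugt3a1. Ugt3a2 stood at 189, 179, 158 and 148 CPM in S1-like cells, whereas S2-like cells (375, 359, 340 and 301 CPM) and S3-like cells (387, 379, 370 and 336 CPM) overlapped. UMIs counted for the Ugt1a genes were few. Because these genes share their 3' ends, their counts may lack reads, and low counts were not read as low expression. Ugt1a7c reached 5.00 to 9.42 CPM in S1-like and 5.50 to 10.9 CPM in S2-like cells, and Ugt1a6a 3.68 to 7.06 and 2.86 to 6.59 CPM.

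Among the Gst genes, the alpha-class genes Gsta2 and Gsta4 were highest in S1-like cells with both sexes pooled, Gsta3 was about level in S1-like and S2-like cells, and the mu-class gene Gstm1 was highest in S3-like cells. Gsta2, an alpha-class enzyme, stood at 993, 940, 1048 and 968 CPM in S1-like cells, 346, 422, 471 and 518 CPM in S2-like cells and 110, 171, 237 and 401 CPM in S3-like cells. Gsta3 stood at 168, 170, 206 and 178 CPM in S1-like cells, 155, 168, 211 and 210 CPM in S2-like cells and 16.4, 37.2, 37.8 and 41.4 CPM in S3-like cells. Gsta4, known for conjugating 4-hydroxynonenal, a product of lipid peroxidation, stood at 144, 109, 179 and 164 CPM in S1-like cells and 32.2, 39.4, 54.7 and 59.2 CPM in S3-like cells. For Gsta3 and Gsta4 every S1-like library lay above every S3-like library. Gstm1 ran the other way, from 115, 117, 140 and 143 CPM in S1-like cells over 285, 292, 262 and 294 CPM in S2-like cells to 849, 965, 912 and 995 CPM in S3-like cells.

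Of the other Gst genes, Gstm5, Gstt2 and Gstz1 differed by less than 2-fold between segments in each library, and Gstt1 and Gsto1 were lower in S3-like cells. Gstm5 lay between 252 and 381 CPM in all 3 segments. Gstt2, of the theta class, lay between 184 and 305 CPM. Gstz1, the zeta-class maleylacetoacetate isomerase of tyrosine breakdown, stood at 138, 143, 135 and 146 CPM in S1-like cells. It was higher in S2-like cells (244, 240, 225 and 230 CPM) and S3-like cells (194, 205, 207 and 205 CPM), with no overlap between segments. Gstp1, of the pi class, lay between 17.1 and 90.3 CPM. Gstt1 stood at 104, 110, 133 and 129 CPM in S1-like cells against 14.3, 19.7, 15.6 and 14.5 CPM in S3-like cells. Gsto1, the omega-class enzyme that reduces dehydroascorbate and methylated arsenicals, stood at 45.2, 46.7, 48.1 and 48.1 CPM in S1-like cells and 5.08, 8.76, 8.62 and 10.6 CPM in S3-like cells.

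Of the sulfotransferases only Sult1d1, which sulfates catecholamines and other small phenols in mouse, was abundant, with 593 to 850 CPM in S1-like, 777 to 1092 CPM in S2-like and 787 to 1215 CPM in S3-like cells. Sult1c2 stood at 92.5, 90.6, 75.0 and 82.1 CPM in S1-like cells, 41.5, 46.4, 42.5 and 51.9 CPM in S2-like cells and 22.3, 25.5, 18.0 and 25.1 CPM in S3-like cells, with no overlap between segments. Sult1b1 lay between 3.28 and 8.76 CPM. At 0 h 9 of 44 members had under 20 UMIs in every cell type: Gstm3, Gstt4, Sult2a3, Sult2b1, Sult5a1, Sult6b2, Ugt1a1, Ugt1a10 and Ugt1a6b. Gsto2 (0.293 CPM) and Ugt1a5 (0.597 CPM) were barely counted in proximal cells at that time. The plot of the highest genes shows these gradients together.

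**Figure D1:**
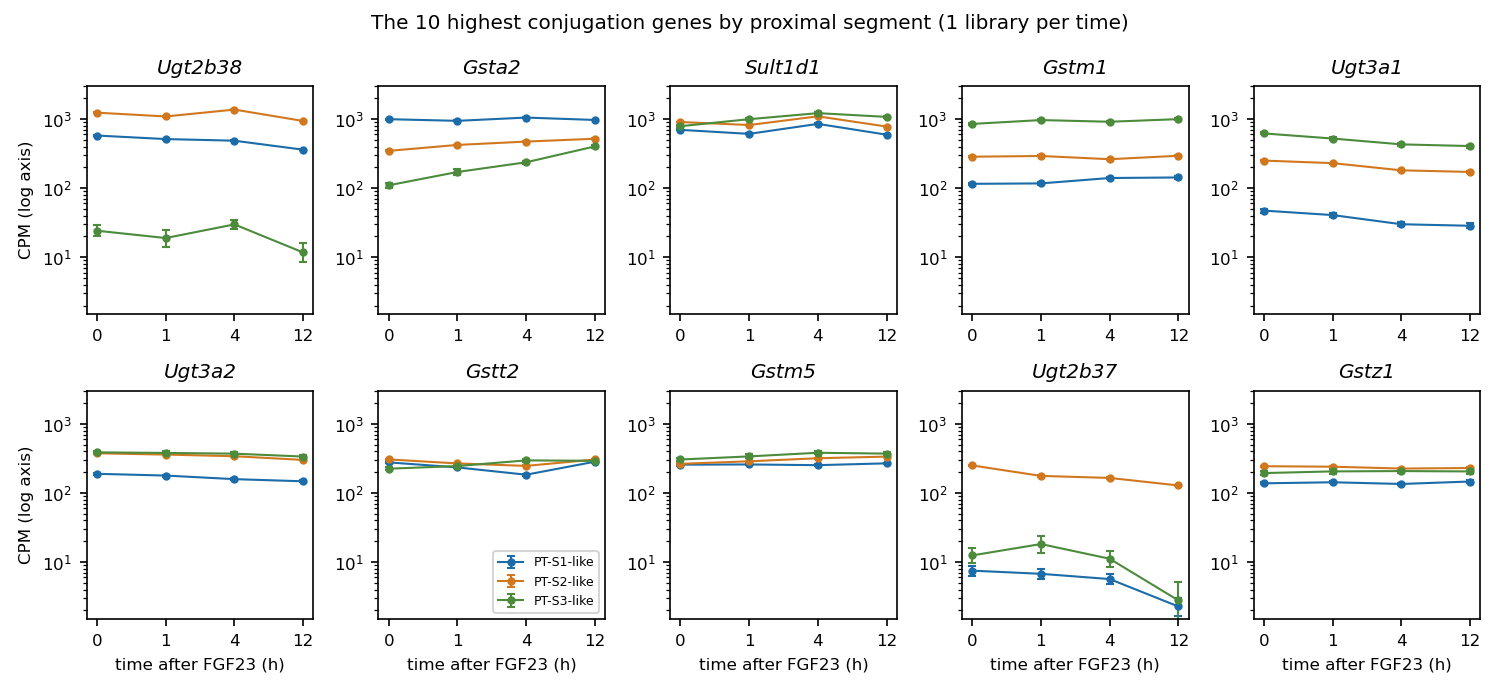
CPM (log axis) of the 10 members with the highest level in a proximal segment at 0 h, against time after FGF23 in h, in PT-S1-like, PT-S2-like and PT-S3-like cells (PT, proximal tubule). Each point is 1 library and bars are exact Poisson 95% intervals, which cover counting error only. Gstm1 and Ugt3a1 are highest in S3-like cells at every time, Gsta2 in S1-like cells, and Ugt2b37 and Ugt2b38 in S2-like cells.

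A gene was counted as patterned where 2 segments differed by 2-fold or more in the same direction in all 4 libraries, among genes with at least 100 UMIs. Since segments come from clusters of the same cells, these counts are descriptions with no test. In S3-like over S1-like cells 3 of 29 members were higher, Gstm1 (6.51- to 8.25-fold), Ugt3a1 (12.8- to 14.3-fold) and Ugt3a2 (2.04- to 2.34-fold), where 5.79% of all genes were. Lower in S3-like cells were 13 of 29, against 14.1% of all genes. They were Gsta2, Gsta3, Gsta4, Gstm2, Gstm6, Gsto1, Gstt1, Sult1c2, Ugt1a6a, Ugt1a7c, Ugt2a3, Ugt2b34 and Ugt2b38. In S2-like over S1-like cells 4 of 34 were higher (4.56% of all genes), namely Ugt2b37, Ugt2b38, Ugt2b5 and Ugt3a1. Lower there were Gstm2, Ugt2a3 and Ugt2b34, 3 of 34 against 7.10% of all genes. In S3-like over S2-like cells Gstm1 and Ugt3a1 were higher, 2 of 32 against 3.89%. Lower were 11 of 32 against 5.98%, led by Ugt2b38, which was 45.8- to 79.7-fold lower. The S3-like level of Ugt2b38 was 1.25% to 2.19% of the S2-like level and that of Ugt2b37 2.18% to 10.3%. Proximal markers stood at a median of 1.16% to 10.3% of their proximal level in thick-limb-like and thin-limb-like cells. Free RNA is a possible source and was not told apart from others. The share of free RNA in S3-like cells was not measured, and S3-like values of Ugt2b38 and Ugt2b37 were not read as expression. These orders mix the sexes. Within female-called cells Ugt2b38 was lower in S2-like (104, 67.3, 89.3 and 74.5 CPM) than in S1-like cells (298, 261, 228 and 204 CPM), the reverse of the pooled order. Within male-called cells Gsta2, Gsta4 and Gstm6 were also at least 2-fold lower in S2-like than in S1-like cells. Female-called cells had the reverse order for the alpha class. Their Gsta2 level was 1741, 1534, 1575 and 1557 CPM in S2-like against 1365, 1293, 1306 and 1242 CPM in S1-like cells, and their Gsta4 level 412, 285, 417 and 495 against 255, 194, 285 and 293 CPM. Female Gsta3 was also higher in S2-like (375, 314, 403 and 357 CPM) than in S1-like cells (214, 202, 255 and 215 CPM).

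Male and female cells could be compared within each library, because Xist or the Y-linked genes Ddx3y, Eif2s3y, Kdm5d and Uty mark a cell's sex. UMIs were summed per library, sex call and segment, and male and female sums were compared over the 4 libraries as pairs with edgeR's quasi-likelihood test. Adjusted p-values are by Benjamini-Hochberg over all genes tested, and errors are standard errors of the log2 ratio. In S2-like cells 22 of 30 members tested passed, 17 higher in females and 5 in males. Over all genes 23.4% were higher in female-called and 22.7% in male-called S2-like cells. In S1-like cells 11 of 30 members were higher in females (3.25% of all genes) and 5 in males (3.93%). In S3-like cells 5 of 20 were higher in females (15.1% of all genes) and 8 in males (16.1%). These p-values measure the spread between 4 libraries of pooled kidneys, which may be partly technical, and the libraries differ in time after FGF23, which enters the fit as the library block. More cells low in Malat1, a nuclear RNA, entered the male sums than the female sums, as described below.

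The male-biased genes were led by the neighbours Ugt2b38 and Ugt2b37, whose upstream sequences are printed above. In S2-like cells Ugt2b38 stood at 1407, 1341, 1698 and 1169 CPM in male-called cells at 0, 1, 4 and 12 h and at 104, 67.3, 89.3 and 74.5 CPM in female-called cells. The log2 ratio of male to female was 4.28 ± 0.11 (SE, 4 pairs, adjusted p = 1.57e-07), and males were higher in 4 of 4 libraries. Ugt2b37 stood at 288, 216, 206 and 160 CPM in males and 13.8, 10.6, 9.13 and 8.63 CPM in females, a log2 ratio of 4.57 ± 0.07 (adjusted p = 2.33e-08). The sexes did not overlap for either gene. Both genes were also higher in males in S1-like cells (Ugt2b37 2.62, Ugt2b38 1.49). In S3-like cells the ratios passed too (3.81 and 1.52), at levels not read as expression. Kidneys of both sexes were digested together, and the female S2-like level was 5.02% to 7.36% of the male level for Ugt2b38 and 4.43% to 5.39% for Ugt2b37, so the part of free RNA in the female values was not tested. Ugt2b5, which holds the same 62-base stretch, stood at 4.71, 3.74, 1.25 and 1.52 CPM in male-called and 3.73, 1.17, 3.00 and 4.98 CPM in female-called S2-like cells. Its log2 ratio was -0.03 ± 0.46 (SE, adjusted p = 0.962), an error wide enough to leave a difference of either sign possible.

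The Ugt3 genes were modestly higher in males in S2-like cells, by 0.59 ± 0.07 for Ugt3a1 (adjusted p = 0.000333) and 0.51 ± 0.06 for Ugt3a2 (adjusted p = 0.000252) on the log2 scale. Other Ugt genes were higher in females. Ugt2b34 stood at 41.2, 35.1, 32.8 and 35.5 CPM in female-called S2-like cells against 0.570, 0.582, 0.461 and 1.04 CPM in male-called ones. Its log2 ratio of male to female was -5.60 ± 0.18 (adjusted p = 4.62e-07), whereas in S1-like cells it was -0.36 ± 0.08 (adjusted p = 0.0262). Ugt1a2 stood at 9.64, 15.3, 21.6 and 19.1 CPM in female-called and 0.0899, 0.276, 0.264 and 0.130 CPM in male-called S2-like cells, from 3 to 9 male UMIs per library (log2 -6.13 ± 0.20, adjusted p = 5.64e-07). Ugt1a6a differed by -2.59 ± 0.23 (adjusted p = 7.71e-05). For Ugt2b34 and Ugt1a2 every female value lay above every male value.

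Among the Gst genes Gsta4, Gsta1 and Gsta2 had the largest fitted differences between the sexes in S2-like cells, and the alpha-class gene Gsta3 a smaller one (-1.17 ± 0.11). Gsta4 stood at 412, 285, 417 and 495 CPM in female-called S2-like cells and at 2.88, 1.81, 2.77 and 2.34 CPM in male-called ones. The log2 ratio of male to female was -7.13 ± 0.10 (SE, 4 pairs, adjusted p = 1.23e-08), the largest of the members tested in S2-like cells. In S1-like cells it was -2.44 ± 0.11 and in S3-like cells -4.10 ± 0.29. Gsta2 stood at 1741, 1534, 1575 and 1557 CPM in female-called S2-like cells and at 61.1, 92.4, 152 and 204 CPM in male-called ones (log2 -3.58 ± 0.30, adjusted p = 5.61e-05). In S1-like cells the Gsta2 difference was smaller, -0.90 ± 0.08, with 1365, 1293, 1306 and 1242 CPM in females and 623, 623, 774 and 720 CPM in males. Gsta1 had 0 to 3 male UMIs per library in S2-like cells against 19 to 46 female UMIs (log2 -6.16 ± 0.43). Part of the Gsta1 reads may come from Gsta2 or its other copies, given the shared 3' ends.

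Gsto1 was higher in females in all 3 segments, by -0.67 ± 0.06 in S1-like, -2.17 ± 0.09 in S2-like and -3.66 ± 0.43 in S3-like cells. The mu-class genes Gstm6 (-3.02 ± 0.27), Gstm7 (-1.92 ± 0.12), Gstm5 (-0.51 ± 0.06) and Gstm1 (-0.49 ± 0.06) were also higher in female S2-like cells, as were Gstt1 (-0.95 ± 0.08), Gstk1 (-0.84 ± 0.09) and Gstt3 (-0.50 ± 0.08). Of the sulfotransferases Sult1c2 (-1.02 ± 0.10) and Sult1d1 (-0.37 ± 0.08) were higher in female S2-like cells, and none passed in S1-like or S3-like cells. Gstp1 was the only Gst gene higher in males in S2-like cells, by 0.27 ± 0.08 (adjusted p = 0.0307), in 3 of 4 libraries. The 4 S2-like values of Gstp1 overlapped between the sexes, and the call was lost in several alternatives: the difference was 0.061 without composition factors (adjusted p = 0.527), and adjusted p was 0.575 without the library block, 0.052 with sex-biased genes kept in the clustering, and 0.0914, 0.0965 and 0.0804 without the 1, 4 or 12 h library. The plot of S2-like cells by sex shows all 22 genes that passed there.

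**Figure D2:**
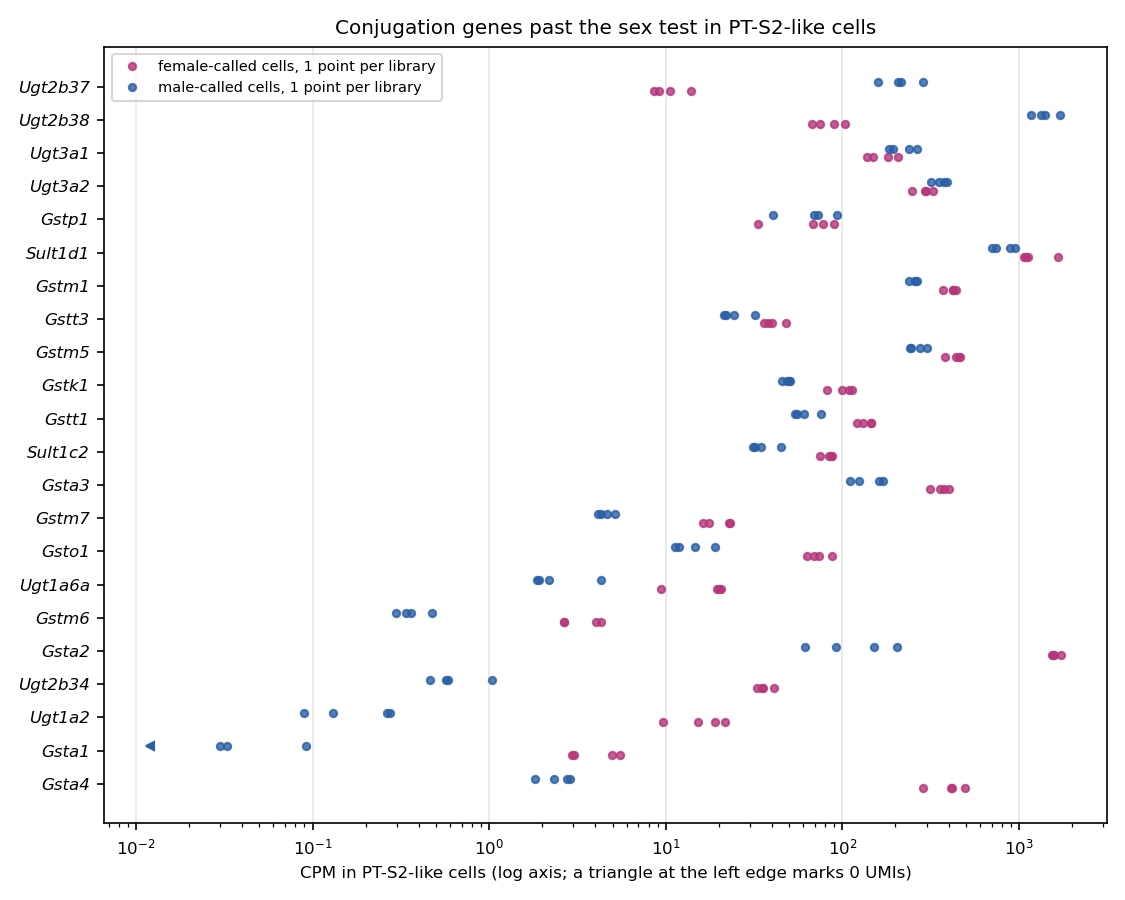
CPM (log axis) in PT-S2-like cells of the 22 members with an adjusted p under 0.05 between male-called and female-called cells, 1 point per sex and library, and a triangle at the left edge for 0 UMIs. Genes are ordered by the fitted ratio; from Gsta4 (-7.13 on the log2 scale) to Gstm7 (-1.92) the points of the sexes lie apart, and Gstp1 overlaps.

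For 5 members the sex difference passed in opposite directions in different segments: Gsta3, Gstm1, Gstt1, Gstm5 and Ugt3a1. For Gsta3 (all segments) and Gstm1 (S2-like and S3-like) calls on both sides held in every alternative. No alternative of the sex test left out the sub-clusters low in Malat1 described below. In S3-like sub-clusters with more Malat1, Gstm1 stood at 768 CPM in the mostly female and 781 CPM in the mostly male one. Among those low in Malat1 the mostly male one had 1120 CPM and 156 male calls. The other had 1160 CPM and 8 female calls. How far this unequal calling enters the Gstm1 difference was not tested. A call on one side was lost in at least 1 alternative for Gstt1 in S3-like cells (highest adjusted p = 0.140), Gstm5 in S1-like (0.284) and S3-like cells (0.290), and Ugt3a1 in S1-like cells (0.979) and, without the library block, in S3-like cells (0.134). Gsta3 was higher in females in S1-like (-0.55 ± 0.06) and S2-like cells (-1.17 ± 0.11) and higher in males in S3-like cells (1.51 ± 0.26, adjusted p = 0.000384). Its S3-like values were 21.4, 40.7, 48.4 and 86.0 CPM in males and 4.87, 21.5, 32.0 and 16.3 CPM in females. Males were higher in each library, and the lowest male value lay below the highest female value. The S3-like values rested on 59, 46, 105 and 92 male and 5, 18, 44 and 21 female UMIs. In S2-like cells Gsta3 stood at 111, 124, 161 and 170 CPM in males and 375, 314, 403 and 357 CPM in females. The part of free RNA in the S3-like Gsta3 values was not tested. Gstm1 was higher in females in S1-like (-0.47 ± 0.10) and S2-like cells and higher in males in S3-like cells by 0.49 ± 0.10 (adjusted p = 0.0011). Gstt1 was higher in males in S3-like cells by 1.11 ± 0.31 (adjusted p = 0.0143), in 3 of 4 libraries. Ugt3a1, higher in males in S1-like and S2-like cells, was higher in females in S3-like cells (-0.40 ± 0.09, adjusted p = 0.00196). Gstz1 (0.58 ± 0.10), Gstt2 (0.48 ± 0.09) and Gstp1 (1.08 ± 0.18) were higher in males in S3-like cells. Without the 0 h or the 4 h library Gstt1 in S3-like cells had an adjusted p of 0.0879 or 0.0988. When the difference between segments was itself tested, 17 of 31 members differed between S2-like and S1-like (26.5% of all genes), 11 between S3-like and S1-like (18.4%) and 16 between S3-like and S2-like cells (16.9%).

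**Figure D3:**
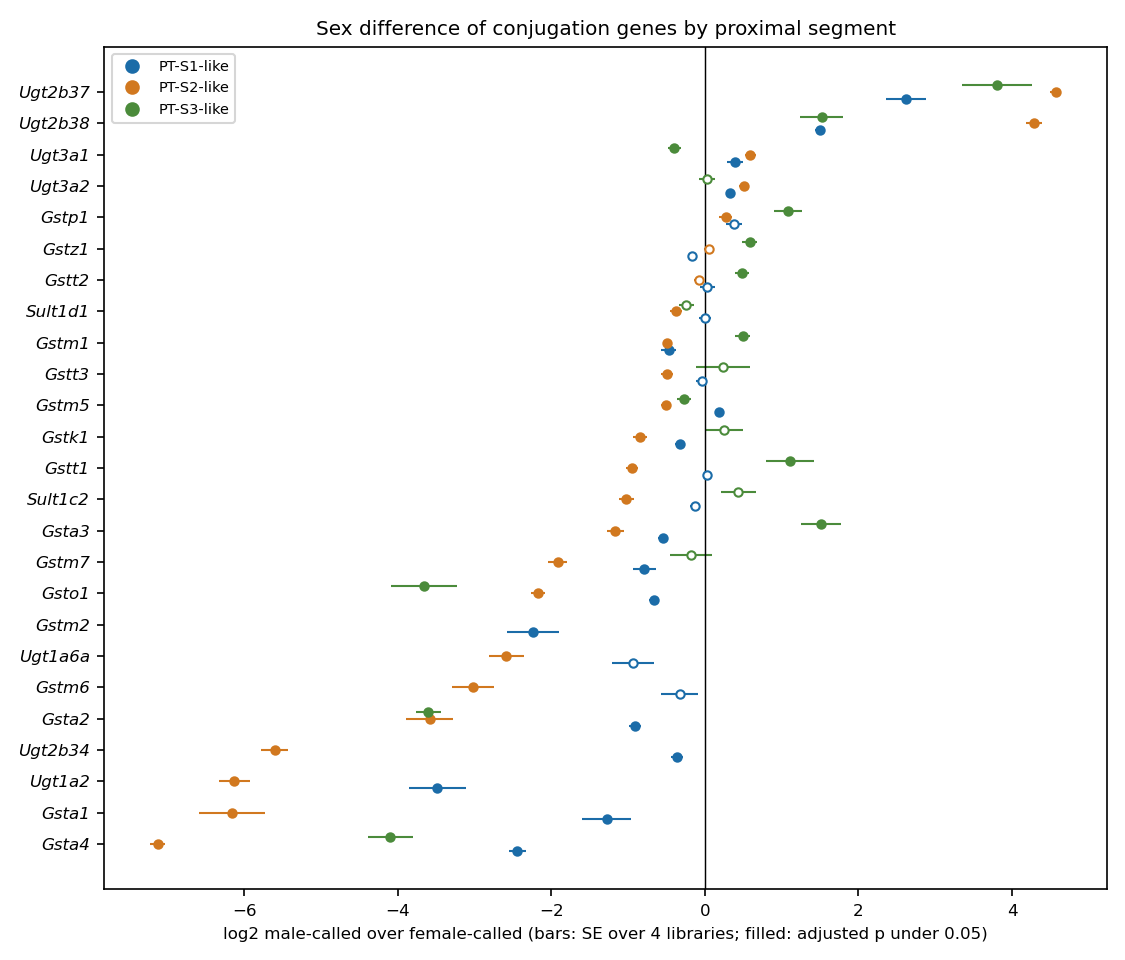
Fitted log2 ratio of male-called to female-called cells for each member that passed in at least 1 segment, with bars for the standard error over 4 pairs of sums; filled points have an adjusted p under 0.05. Gsta4 reaches -7.13 in S2-like cells, Ugt2b37 4.57, and Gsta3, Gstm1, Gstt1, Gstm5 and Ugt3a1 have filled points on both sides of 0.

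Of the 51 sex differences called, 38 held in every alternative run (20 of 22 in S2-like, 10 of 13 in S3-like and 8 of 16 in S1-like cells), and none changed sign. Without composition factors, the median of all genes moved by -0.21 in S2-like and -0.14 in S3-like cells. The male share of all calls then went from 49.25% to 22.9% in S2-like, from 51.65% to 31.2% in S3-like and from 54.7% to 43.7% in S1-like cells. Members in S2-like cells were then 4 higher in males and 20 in females. Male and female cells of S2 and S3, and in part of S1, also lay in different sub-clusters, although 370 genes that differ between the sexes were left out of that clustering. In S1-like cells 1 sub-cluster held 13 male-called and 780 female-called cells, and the others held calls of both sexes. It had 1877 CPM of Gsta2, 363 CPM of Gsta4 and 154 CPM of Ugt2b38. The other S1-like sub-clusters had 777 to 1166, 115 to 143 and 451 to 564 CPM of these genes. The largest female sub-cluster of S2-like cells held 0 male-called and 2290 female-called cells, and the largest male one 2613 and 24. The male one had 998 CPM of Slc7a13, an S3 marker known as male-biased, against 5.13 CPM in the female one. Whether the sexes' cells come from the same stretch of tubule was not tested.

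Over time after FGF23, 18 members passed 1.5-fold against 0 h in at least 1 segment and time, counting only genes whose UMIs in both libraries together reached 100. In S1-like cells at 1 h 0 of 25 members were higher and 0 lower, where 1.77% and 1.16% of all genes were. At 4 h 3 of 25 were higher (7.25% of all genes) and 3 lower (3.55%), and at 12 h 0 of 24 were higher (4.73%) and 3 lower (2.02%). In S2-like cells at 1 h 2 of 28 were higher (1.39%) and 0 lower (1.10%). At 4 h 3 of 27 were higher (5.53%) and 4 lower (4.62%), and at 12 h 4 of 27 were higher (3.87%) and 2 lower (5.34%). In S3-like cells at 1 h 2 of 17 were higher (2.32%) and 0 lower (2.35%). At 4 h 4 of 18 were higher (7.04%) and 1 lower (5.86%), and at 12 h 4 of 16 were higher (4.59%) and 2 lower (6.66%). The median log2 ratio of the members lay between -0.08 and 0.24 and that of all genes between -0.04 and 0.08. All 3 times are compared with the same 0 h library.

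Since the share of female calls among sex-called cells differed between libraries, each ratio was also taken within male-called and within female-called cells. Females were 24.0%, 28.0%, 29.6% and 28.7% of sex-called S2-like cells at 0, 1, 4 and 12 h, and 33.0%, 50.5%, 38.2% and 56.3% of S3-like cells. In S1-like cells they were 49.2%, 47.9%, 54.9% and 49.7%. Of the 37 ratios past 1.5-fold, in 18 genes, both sexes passed 1.5-fold in the same direction in 17, 1 sex in 15 and neither in 5. Gsta4 is one of those with neither: in S2-like cells it was higher at 12 h by 0.60 on the log2 scale, with -0.30 in males and 0.26 in females. Ugt2b38 in S3-like cells is another, with -1.05 at 12 h, -0.38 in males and 0.38 in females, at a level not read as expression.

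Gstp1 was low at 4 h in each segment. It stood at 37.6, 33.7, 18.0 and 39.5 CPM in S1-like cells, 70.8, 71.0, 37.8 and 90.3 CPM in S2-like cells and 40.8, 56.2, 17.1 and 48.6 CPM in S3-like cells at 0, 1, 4 and 12 h. The 4 h value was the lowest of the 4 in every segment, and the 12 h value was above that at 0 h. The log2 ratio at 4 h was -1.06 in S1-like cells (95% counting interval -1.23 to -0.89), with -0.74 in males and -1.38 in females. In S2-like cells it was -0.91 (-0.79 in males, -1.23 in females). In S3-like cells it was -1.26, with -1.22 in males and -0.10 in females on 16 and 20 UMIs. Gstp2, which shares 3' sequence with Gstp1, was counted at 1.24, 2.35, 0.879 and 1.92 CPM in S2-like cells.

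Of the Ugt1a members, 3 were higher at 4 h. Ugt1a7c stood at 5.00, 7.41, 9.42 and 6.38 CPM in S1-like and 5.50, 8.06, 10.9 and 7.75 CPM in S2-like cells. The log2 ratio at 4 h was 0.91 (0.57 to 1.27) in S1-like cells, with 0.71 in males and 1.15 in females, and 0.99 (0.78 to 1.21) in S2-like cells, with 0.90 in males and 1.16 in females. Ugt1a2 in S2-like cells stood at 1.80, 3.37, 4.73 and 4.19 CPM, and within females its ratios at the 3 later times were 0.66, 1.17 and 0.99. Ugt1a6a, an enzyme of simple phenols, was higher at 4 h in S1-like cells by 2.28 in males, on 12 and 70 UMIs, against 0.24 in females. In S2-like cells the values were 1.21 in males and -0.05 in females, and the difference between the sexes was not tested. As the Ugt1a genes share their 3' ends, which of them the UMIs belong to is uncertain.

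Members of Ugt2 and Ugt3 were lower at the later times. Ugt2b37 in S2-like cells went from 250 CPM at 0 h to 165 CPM at 4 h and 128 CPM at 12 h. Its log2 ratio at 12 h was -0.96 (-1.01 to -0.91), with -0.85 in males and -0.68 in females. In S1-like cells the 12 h ratio was -1.72, with -1.78 in males and -1.71 in females, the latter on 24 and 8 UMIs. The mix of mostly male S2-like sub-clusters also moved. The largest, with 267 CPM of Ugt2b37, held 969, 880, 682 and 424 cells at 0, 1, 4 and 12 h. One with 75.5 CPM held 240, 226, 349 and 389, and one with 336 CPM held 473, 432, 525 and 550. Those with 214 and 80.2 CPM held fewer cells at 12 h than at 0 h. Ratios within a sex do not remove this shift, and its part was not tested. Ugt2b38 passed in S1-like cells at 12 h, by -0.68 (-0.70 in males, -0.55 in females), and Ugt3a1 in S1-like cells at 4 h (-0.66, with -0.69 and -0.64 in males and females) and 12 h (-0.73, with -0.86 and -0.45). In S3-like cells Ugt3a1 was lower by -0.61 at 12 h, with -0.86 in males and -0.60 in females. Ugt2b5 in S2-like cells was lower in males (-1.91 at 4 h, -1.63 at 12 h), with -0.31 and 0.42 in females on 24 to 30 UMIs. In the low direction also stood Gstt2 in S1-like cells at 4 h, by -0.59 (-0.84 in males, -0.39 in females), and Gstm4 in S2-like cells at 4 h, by -0.71 (-0.72 in males, -0.67 in females).

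Gsta3 and Gsta2 were higher after FGF23 in S3-like cells, where the female share of sex-called cells was also higher (33.0% at 0 h, 50.5%, 38.2% and 56.3% after). Of these genes, Gsta3 was higher in male-called and Gsta2 in female-called S3-like cells. Gsta3 stood at 16.4, 37.2, 37.8 and 41.4 CPM, with log2 ratios to 0 h of 1.18, 1.20 and 1.33. Within males they were 0.93, 1.18 and 2.01, and within females 2.15, 2.72 and 1.75, where the 0 h library held 5 UMIs. Gsta2 stood at 110, 171, 237 and 401 CPM, with 212, 287, 390 and 650 CPM in females and 16.7, 14.2, 46.1 and 31.8 CPM in males. The female values were higher at each later time, with log2 ratios of 0.44, 0.88 and 1.61, and the male ratios were -0.23, 1.47 and 0.93 on 16 to 100 UMIs. At 1 h neither sex passed 1.5-fold for Gsta2, and Gsta4 passed in neither sex at 4 or 12 h. The lowest ratio of Gsta2 in S3-like cells over all alternatives was 0.47 at 4 h and 0.93 at 12 h. In S2-like cells the pooled Gsta2 level did not pass 1.5-fold. Male-called S2-like cells had 61.1, 92.4, 152 and 204 CPM and female-called ones 1741, 1534, 1575 and 1557 CPM, so the male values ranged over more than 1.5-fold and the female ones did not. The shift of male sub-clusters given for Ugt2b37 was not removed from these male values. The largest one, which held fewer cells at later times, had 66.5 CPM of Gsta2. Those that held more cells at 12 h than at 0 h had 428 and 89.2 CPM. Sult1d1 in S3-like cells was higher at 4 h by 0.63 (0.26 in males, 0.87 in females). Gsto1 was higher in S2-like cells at 12 h by 0.69 (0.76 in males, 0.48 in females).

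The remaining ratios past 1.5-fold belonged to Gsta1, Gstp2, Gstt3 and Gsta4. Several rested on few UMIs or on 1 sex, and Gsta4 in S3-like cells passed in neither sex. Gsta1 in S1-like cells was higher by 0.81 at 4 h on 35 and 79 UMIs. Gstp2 in S2-like cells was higher by 0.92 at 1 h (0.90 in males, 1.11 in females) and by 0.64 at 12 h. At 12 h the male ratio was 1.06 and the female one -1.90, the latter on 8 and 2 UMIs. Gstt3 in S3-like cells was higher by 0.81 at 12 h, with 1.19 in males and -0.14 in females. Gsta4 in S3-like cells was higher by 0.76 at 4 h and 0.88 at 12 h, with 0.45 and -1.33 in males, on 13, 14 and 2 UMIs, and 0.02 and 0.35 in females.

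**Figure D4:**
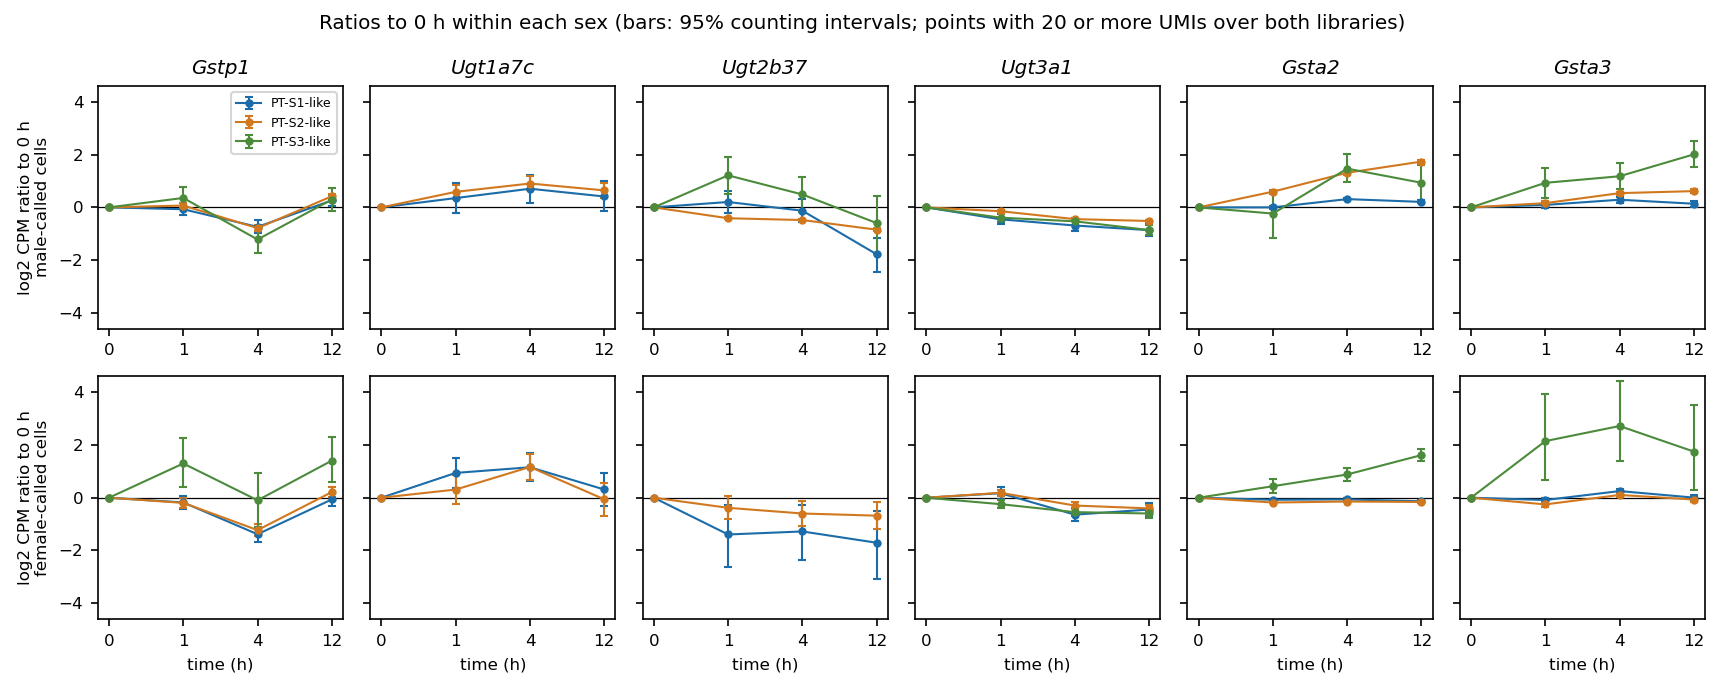
Log2 CPM ratio to the 0 h library against time in h, in male-called (top) and female-called cells (bottom) of the 3 segments, with 95% counting intervals; points with under 20 UMIs over both libraries are left out. Gstp1 is lowest at 4 h in S1-like and S2-like cells of both sexes (-0.74 and -0.79 in males, -1.38 and -1.23 in females), and Gsta2 in S2-like cells is above 0 only in males.

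RNA quality also moved with the libraries. Sub-clusters with under 1000 CPM of Malat1, a nuclear RNA (231 to 535 CPM, against 13849 to 88487 CPM in the other S1-, S2- and S3-like sub-clusters), held 17.9%, 19.2%, 22.8% and 29.8% of S2-like UMIs at 0, 1, 4 and 12 h. They held 10.2% to 13.3% of S1-like and 36.1% to 43.7% of S3-like UMIs. The share of their cells with a sex call varied. In S2-like cells it was 803 of 1980 and 514 of 1204 in the sub-clusters with mostly male calls, against 61 of 1276 in the sub-cluster with 1571 CPM of Gsta2 and 360 CPM of Gsta4, near the 1634 and 405 CPM of the female sub-cluster. In S3-like cells it was 159 of 282 in the mostly male one and 11 of 260 in the other. Female calls rest on Xist, which stood at 11.0 CPM in the S2-like sub-cluster with 61 calls and 2184 CPM in the female one. Male calls in the low-Malat1 S2-like sub-clusters were 782, 502 and 15, and female calls 21, 12 and 46. The share of female calls may therefore differ from the share of female cells. Its bearing on the sex test and on ratios within each sex was not tested. Median mitochondrial shares of proximal cells were 23.1%, 23.2%, 16.9% and 22.6%. Without these sub-clusters, the counts over the 3 segments were 4 higher at 1 h, 10 higher and 7 lower at 4 h, and 7 higher and 5 lower at 12 h, against 4, 10 and 8, and 8 and 7 with all cells. Gsta2 in S3-like cells then had ratios of 1.22, 1.54 and 2.36, and Ugt2b38 in S3-like cells had -0.48 at 12 h. This setting was chosen after the data had been seen.

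Outside the proximal tubule, 11 of the 25 members with at least 20 UMIs in their highest cell type at 0 h were highest in another type, and 8 of these had the same highest type in all 4 libraries. With only cell types of at least 20 UMIs ranked for each member, 24 of 35 were highest in proximal cells and 11 in another type. This minimum favours proximal cells, which held 82033658 UMIs at 0 h against 145710 in thin-limb-like and 238546 in urothelial-like cells. Gsto2, for example, ranked highest in proximal cells at 0.293 CPM, below its 16.8 CPM in urothelial-like cells on 4 UMIs. The 24 were therefore not read as a proximal preference. The share over all genes was not counted, so these counts were not read as a trait of the members. Of the 11, Gsta3 had 189 CPM in urothelial-like cells at 0 h, on 45 UMIs, against 161 CPM in proximal cells. Gstk1 had 66.7 CPM in distal-tubule-like against 58.3 CPM in proximal cells. For both genes the highest type changed between libraries. Urothelial-like cells, 11 to 45 per library, held the highest Gstm1 level, with 17934, 22178, 10919 and 7514 CPM against 283, 268, 267 and 285 CPM in proximal cells as a whole. They also held the highest Gsta4 level (4280, 5495, 5567 and 2322 CPM), Gsto1 level (675, 711, 688 and 574 CPM) and Gstm4 level (83.8, 111, 96.7 and 84.7 CPM). Proximal cells had 89.1 to 144 CPM of Gsta4 and 27.4 to 39.1 CPM of Gsto1. Thin-limb-like cells followed for Gstm1, with 1318, 1658, 1456 and 1222 CPM.

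Principal-cell-like cells of the collecting duct were highest for the theta-class genes Gstt1 (586, 630, 586 and 594 CPM) and Gstt3 (155, 148, 156 and 171 CPM). Gstm2 stood at 887, 982, 613 and 736 CPM there and at 487, 904, 648 and 649 CPM in thin-limb-like cells, against 0.803 to 1.45 CPM in proximal cells. The order of the first 2 types differed at 4 h. Sult1a1, a phenol sulfotransferase, was highest in endothelial-like cells, with 108, 132, 147 and 145 CPM, followed by the distal-tubule-like cells with 43.2, 41.3, 48.2 and 34.9 CPM, and stood at 0.171 to 0.532 CPM in proximal cells. Gstp3 was highest in T- and NK-like cells, with 77.8, 61.5, 57.0 and 76.8 CPM. Thick-limb-like cells had Sult1d1 at 292, 280, 510 and 300 CPM, below the 752 to 1045 CPM of proximal cells, with the 4 h library highest in both.

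Free RNA from proximal cells can give UMIs in other types. Proximal markers stood there at a median of 1.16% to 2.14% of their proximal level in thick-limb-like, 0.943% to 4.20% in principal-cell-like, 2.29% to 6.28% in endothelial-like and 0.938% to 10.1% in urothelial-like cells. The levels named above for Gstm1, Gsta4, Gstm2, Gstt1, Sult1a1 and Gstp3 exceed the proximal level itself. Low levels elsewhere, such as Ugt2b38 or Gsta2 outside the tubule, were not read as expression.

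**Figure D5:**
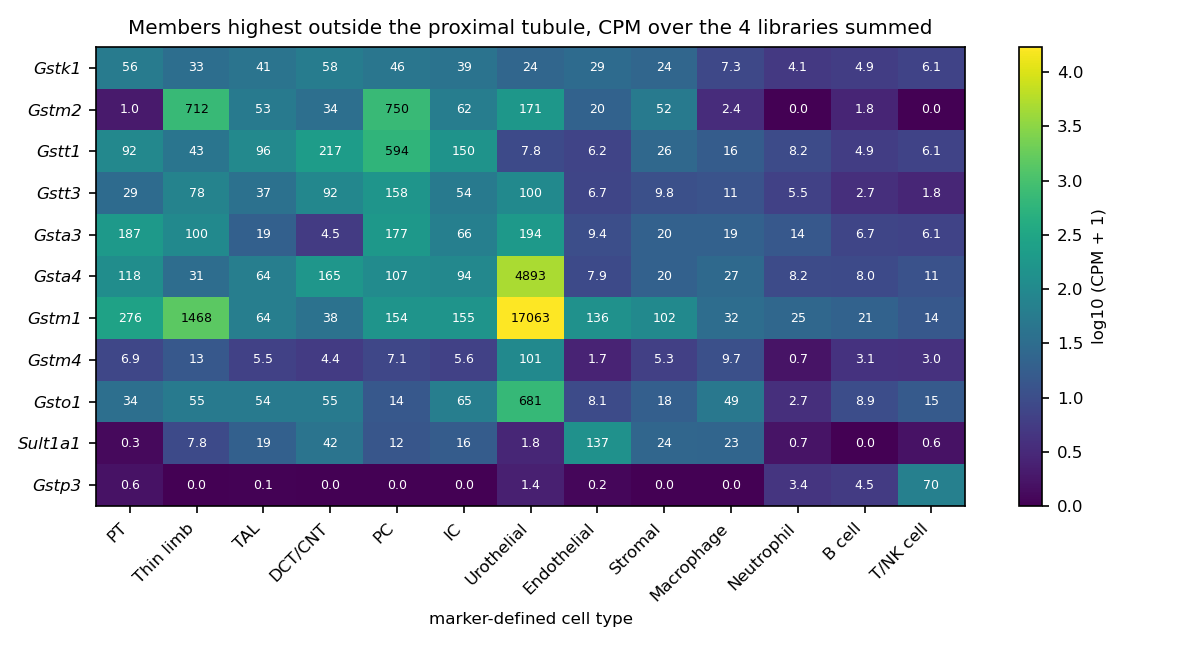
CPM over the 4 libraries summed, for the 11 members whose highest level at 0 h was outside the proximal tubule; colour gives log10 (CPM + 1) and numbers give CPM per marker-defined cell type (TAL, thick ascending limb; DCT/CNT, distal convoluted and connecting tubule; PC and IC, principal and intercalated cells). Gstm1 and Gsta4 are highest in urothelial-like cells, Gstm2, Gstt1 and Gstt3 in PC-like cells and Sult1a1 in endothelial-like cells.

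Other genes of conjugation, 39 of 40 found, cover glutathione, UDP-glucuronate and PAPS supply, efflux pumps, regulators and targets of NRF2, the factor encoded by Nfe2l2. More of them than of the members passed 1.5-fold at 4 h in S1-like cells: 11 of 34 were higher and 0 lower, against the 7.25% and 3.55% of all genes above. Hmox1, heme oxygenase and an NRF2 target, stood at 173, 539, 986 and 21.4 CPM in S1-like cells, a log2 ratio of 2.51 at 4 h (3.08 in males, 1.81 in females) and -3.01 at 12 h. Txnrd1 stood at 54.2, 67.1, 192 and 84.8 CPM, and Nfe2l2 itself at 38.4, 70.4, 86.4 and 49.6 CPM. Both subunits of glutamate-cysteine ligase, which makes the first step of glutathione synthesis, were higher at 4 h. Gclc went from 69.3 to 146 CPM and Gclm from 222 to 385 CPM. Ugdh, which makes UDP-glucuronate, was higher by 0.75 and the efflux pump Abcc2 by 0.75. In the PAPS group 0 of 5 passed. In S2-like cells 6 of 35 were higher at 4 h (5.53% of all genes) and 6 at 12 h (3.87%), with 1 lower at each (4.62% and 5.34%). Papss1, a PAPS synthase, was lower at 12 h by -1.05, with -1.16 in males and 0.10 in females.

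In the sex test, 24 of 36 genes of this list passed in S2-like cells, 13 higher in males (22.7% of all genes) and 11 in females (23.4%). In S1-like cells 2 of 34 were higher in males (3.93% of all genes) and 5 in females (3.25%). Glutathione synthesis genes were higher in male S2-like cells, Gclc by 0.92 ± 0.06, Gclm by 0.88 ± 0.06 and Gss by 0.91 ± 0.06 on the log2 scale (edgeR's quasi-likelihood test, 4 pairs). Higher in females were the efflux pump Abcc4 (-4.18 ± 0.25), the xenobiotic receptors Nr1i3 (-3.02 ± 0.38) and Nr1i2 (-2.19 ± 0.16) and the microsomal transferase Mgst1 (-1.41 ± 0.12). Papss1 was higher in males (1.77 ± 0.18) and Papss2 in females (-0.90 ± 0.11). Gss, Nr1i2, Nr1i3 and Papss2 were chosen for naming after their values were seen.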

How the data were processed

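Kidney cells of 4 libraries, 1 each at 0, 1, 4 and 12 h, were measured as UMI counts per gene and barcode. The deposited values are whole-number counts. The submitters' processing notes name Cell Ranger 3.1.0, STAR, Seurat and the build mm10, with no role or order. The labels describe removal of dead cells by Annexin V before loading. A 24 h time in the protocol was not analysed here.

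Cells with at least 300 genes and at most 50% mitochondrial UMIs were kept and clustered (scanpy 1.11.5, Leiden, resolution 1.5). Simulated-doublet neighbours marked 7.59% to 8.89% of cells, which were removed. Clusters were named from marker lists. Counts were summed per library and cell type. Time ratios are CPM ratios to 0 h with exact 95% counting intervals, called at 1.5-fold with at least 100 UMIs, and have no test. Sexes were compared with edgeR 4.0.16 (quasi-likelihood, library block, Benjamini-Hochberg over all genes, threshold 0.05); DESeq2 1.42.0 was an alternative. Male and female sums of 1 library are paired by that library, and their deviations correlated at 0.128 to 0.554. The test scripts were tested on simulated data. Members described in full are the 10 with the highest CPM in a segment at 0 h, those 2-fold apart between S1-like and S3-like cells in all 4 libraries, those past 1.5-fold over time, those past the sex test, and those highest outside the proximal tubule with at least 20 UMIs. Other conjugation genes were named where past 1.5-fold over time, apart from 4 identified in the text. The members and lists were chosen with earlier results of these data known. Intervals and floors (3 counts) cover counting error only.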

Additional observations from a re-analysis of the deposited data

Results flagged for a closer look

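For 5 members the sex difference in one segment had the opposite sign to that in another. The difference between segments in the log2 ratio of male to female was then tested over the sums of 4 libraries, with edgeR's quasi-likelihood test and Benjamini-Hochberg adjustment over all genes. This test was added after the data had been seen. Of the 5 members, Gsta3 and Gstm1 kept calls on both sides in every alternative, and Gstt1, Gstm5 and Ugt3a1 did not. No alternative of the sex test left out the sub-clusters low in Malat1, and the part of free RNA in the S3-like Gsta3 values was not tested.

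For Gsta3 the ratio in S3-like cells was above that in S1-like cells by 1.95 ± 0.33 (SE, adjusted p = 0.000118) and above that in S2-like cells by 2.56 ± 0.33 (adjusted p = 1.47e-06). For Gstm1 it was higher by 1.00 ± 0.15 against S1-like cells (adjusted p = 1.52e-05) and by 1.01 ± 0.14 against S2-like cells (adjusted p = 7.29e-06). Gstt1 differed by 2.09 ± 0.28 between S3-like and S2-like cells (adjusted p = 3.12e-06).

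For Ugt3a1 the ratio in S3-like cells was below that in S1-like cells, at -0.75 ± 0.13 (adjusted p = 0.000212), and below that in S2-like cells, at -0.96 ± 0.12 (adjusted p = 1.96e-06). Gstm5 differed by -0.67 ± 0.11 between S2-like and S1-like cells (adjusted p = 4.46e-05) and by -0.41 ± 0.12 between S3-like and S1-like cells (adjusted p = 0.0151). The S3-like sums rest on 42 to 132 male-called and 48 to 65 female-called cells per library.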

How the results depend on the processing

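Of the named sex differences under alternatives, 453 kept their side of the threshold, 56 lost it and 0 changed sign. Of the named time ratios, 276 stayed, 86 moved and 8 changed sign, all within 1 sex. These were, in S2-like cells, Ugt1a6a at 4 h (female -0.051), Ugt2b5 at 12 h (female 0.42), Gsta4 at 12 h (male -0.30) and Gstp2 at 12 h (female -1.90). In S3-like cells they were Gsta2 at 1 h (male -0.23), Ugt2b38 at 12 h (female 0.38), Gstt3 at 12 h (female -0.14) and Gsta4 at 12 h (male -1.33). Leaving out mitochondrial UMIs moved the median of all genes at 4 h from 0.06 to -0.11 in S3-like cells. Depth limits S3-like cells most, and causes were not tested.

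Over the 3 segments, 4 ratios were higher and 0 lower at 1 h, 10 and 8 at 4 h, and 8 and 7 at 12 h. With at most 25% mitochondrial UMIs there were 1 lower at 1 h, 4 higher at 4 h and 3 lower at 12 h. At 1 h 1 was lower with doublets kept, within males, within females, with sex-biased genes in the clustering, or with unnamed clusters added (the last chosen after seeing the data). Within females there were 6 higher and 4 lower at 4 h, and 2 and 3 at 12 h. A minimum of 300 UMIs gave 1 higher at 1 h, and 4 higher and 4 lower at 12 h. No minimum gave 18 and 8 at 1 h, 36 and 17 at 4 h, and 24 and 16 at 12 h. A 2-fold threshold gave 1 higher at 1 h, 3 and 3 at 4 h, and 3 and 3 at 12 h. Members lower in S2-like than S1-like cells were 3, against 5 within males and 1 within females. Members higher in S3-like than S2-like cells were 2, against 1 within each sex.

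In S1-like cells 5 members were higher in males and 11 in females. Without the library block that pairs the sexes they were 2 and 7, and with DESeq2 3 and 7. Males were 3 without composition factors, with 2 sex UMIs per call, or with sex-biased genes kept in the clustering. Leaving out 1 library gave 3 to 4 in males and 7 to 12 in females: 3 and 7 without 0 h, 3 in males without 12 h, and 7 in females without 1 h. In S3-like cells 5 were higher in females, and 3 without the block. No library could be left out of a time ratio, with 1 library per time.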
